A study of Mus musculus with 6 samples.

Results

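The peaks described here are the 19604 regions of the H3K4me3 peak list of 230-238, a B cell progenitor line, out of 35117 regions in the peak lists of both cell lines of the study. Every peak of this list was taken, and the peaks were then related to the promoters of all protein-coding genes of the mouse GENCODE annotation on GRCm38. 230-238 is an Abelson-transformed mouse pre-B cell line, in which a virally introduced tyrosine kinase sustains growth. The second line, Scid.adh.2C2, is a T cell progenitor line subcloned from a spontaneous thymic lymphoma of a CB17-Prkdc scid mouse, and its 15513 peaks are given only beside those of 230-238. Both lines were grown in culture without any treatment given in the labels. Each line stands for 1 transformed line and not for a population of primary cells.

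H3K4me3, trimethylation of lysine 4 of histone H3, was measured by chromatin immunoprecipitation and sequencing (ChIP-seq) in 2 libraries for each line, with 1 input library of unenriched chromatin. The mark is placed around transcription start sites (TSSs) by the Set1 and Mll methyltransferase complexes, which are brought to unmethylated CpG-rich DNA and to transcribing RNA polymerase. Promoters of most genes in general use carry a compact peak, while very wide H3K4me3 domains are known from genes of high importance to a given cell type. Genes for structures of other tissues, many of which start from CpG-poor promoters, usually carry no H3K4me3 in lymphoid cells.

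The deposited list combined both replicates by the irreproducible discovery rate (IDR), a measure of how alike peaks rank in each replicate. It holds no value per replicate and no read count, so the depth and the spread between replicates are unknown and no difference could be tested. All comparisons are therefore descriptions of 1 list per line, and the Wilson 95% intervals given for shares cover counting error only. Peak height is the fold enrichment over background at the peak, and width is the distance between its ends. A promoter was the 2500 bp either side of any annotated TSS of a gene, and a gene was marked when a peak overlapped this region by 1 bp or more. A gene without a peak is a gene at which none passed the thresholds of the authors, and its level of H3K4me3 was not measured here. The 450 protein-coding genes of the T-lineage and B-lineage gene lists of the study were set aside, which left 21501 of 21951 genes.

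The labelled identity of the line was compared with markers given for it. Ebf1 and Pax5, transcription factors required for B cell commitment, had promoter peaks of 26.1-fold and 21.4-fold, with their widest peaks at 6457 bp and 5848 bp. St6gal1, a sialyltransferase, had a peak of 32.5-fold and 3722 bp, and Myc, a transcription factor that drives growth, had a peak of 31.9-fold and 6600 bp. None of the 4 genes had a promoter peak in Scid.adh.2C2. Ebf1, Pax5 and St6gal1 belong to the lineage lists of the study, and Myc does not.

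To show the kind of sequence behind the marked and unmarked promoters, the 250 bases upstream of the start of selected genes are printed 5′ to 3′ as RefSeq gives them for GRCm38.p6, with each CG dinucleotide in capitals. The genes Gas2l3 and Smyd5 had some of the highest peaks, and Tnf shared a peak that was both high and wide. Mgat1, Sema7a and Bcl11a lay under some of the widest peaks. All 6 of these windows lay wholly inside a 230-238 peak. The windows were chr10:89443968-89444217 on the minus strand for Gas2l3, chr6:85431726-85431975 on the plus strand for Smyd5, chr17:35202008-35202257 on the minus strand for Tnf, chr11:49243941-49244190 on the plus strand for Mgat1, chr9:57939862-57940111 on the plus strand for Sema7a and chr11:24080445-24080694 on the plus strand for Bcl11a. They held 14, 10, 10, 18, 17 and 16 CG dinucleotides in this order, and for Mgat1 the most upstream of 3 RefSeq windows is shown. The other Mgat1 windows, also inside the peak, held 2 and 11.
Gas2l3: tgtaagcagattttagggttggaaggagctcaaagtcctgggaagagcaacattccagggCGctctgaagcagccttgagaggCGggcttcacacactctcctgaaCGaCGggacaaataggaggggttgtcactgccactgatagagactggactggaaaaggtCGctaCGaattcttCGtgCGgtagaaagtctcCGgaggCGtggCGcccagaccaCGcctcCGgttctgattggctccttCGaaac
Smyd5: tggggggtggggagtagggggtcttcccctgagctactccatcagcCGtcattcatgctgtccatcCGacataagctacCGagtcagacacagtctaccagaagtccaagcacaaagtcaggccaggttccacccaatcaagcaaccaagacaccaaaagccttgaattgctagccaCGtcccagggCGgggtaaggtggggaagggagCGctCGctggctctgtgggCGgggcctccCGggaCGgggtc
Tnf: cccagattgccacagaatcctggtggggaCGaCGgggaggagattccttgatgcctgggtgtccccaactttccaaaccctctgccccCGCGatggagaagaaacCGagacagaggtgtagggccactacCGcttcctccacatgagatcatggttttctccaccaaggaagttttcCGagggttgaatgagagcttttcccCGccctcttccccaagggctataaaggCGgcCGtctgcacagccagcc
Mgat1: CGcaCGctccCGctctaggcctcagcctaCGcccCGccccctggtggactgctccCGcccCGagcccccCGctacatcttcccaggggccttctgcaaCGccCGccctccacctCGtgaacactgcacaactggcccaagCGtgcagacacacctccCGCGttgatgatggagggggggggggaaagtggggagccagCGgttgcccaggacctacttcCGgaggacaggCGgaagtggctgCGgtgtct
Sema7a: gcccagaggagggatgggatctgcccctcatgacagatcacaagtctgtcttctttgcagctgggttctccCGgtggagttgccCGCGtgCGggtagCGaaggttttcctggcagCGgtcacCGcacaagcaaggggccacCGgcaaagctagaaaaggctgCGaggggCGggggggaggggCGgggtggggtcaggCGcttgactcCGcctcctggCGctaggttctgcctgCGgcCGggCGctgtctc
Bcl11a: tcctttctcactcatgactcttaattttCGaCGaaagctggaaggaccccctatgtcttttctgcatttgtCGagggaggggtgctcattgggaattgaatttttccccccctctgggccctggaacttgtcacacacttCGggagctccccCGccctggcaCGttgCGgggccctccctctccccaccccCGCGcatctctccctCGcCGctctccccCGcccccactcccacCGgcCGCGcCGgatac

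No 230-238 peak lay within 2500 bp of the starts of the following 4 genes. Srsf1, which encodes a splicing factor of every cell type, and Rpl35, which encodes a ribosomal protein, are shown because they were exceptions among genes of general use. S100a8, a neutrophil calcium-binding protein, and Hbb-bs, a beta globin, are shown as genes of other blood lineages. The windows were chr11:88047123-88047372 on the plus strand for Srsf1, chr2:39005132-39005381 on the minus strand for Rpl35, chr3:90668821-90669070 on the plus strand for S100a8 and chr7:103827929-103828178 on the minus strand for Hbb-bs. Srsf1 and Rpl35 held 19 and 23 CG dinucleotides, more than any of the marked windows above, while S100a8 and Hbb-bs held 2 each, as did one Mgat1 window that is not shown.
Srsf1: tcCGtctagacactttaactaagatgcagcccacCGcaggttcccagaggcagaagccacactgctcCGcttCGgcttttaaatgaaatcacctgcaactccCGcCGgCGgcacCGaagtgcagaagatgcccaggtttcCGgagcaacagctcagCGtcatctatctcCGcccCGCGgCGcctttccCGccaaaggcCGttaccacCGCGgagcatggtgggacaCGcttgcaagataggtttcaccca
Rpl35: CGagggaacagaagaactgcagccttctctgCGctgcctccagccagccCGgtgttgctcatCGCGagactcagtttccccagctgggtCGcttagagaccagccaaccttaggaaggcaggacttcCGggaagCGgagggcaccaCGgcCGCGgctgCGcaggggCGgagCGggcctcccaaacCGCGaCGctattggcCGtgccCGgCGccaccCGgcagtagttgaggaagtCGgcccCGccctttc
S100a8: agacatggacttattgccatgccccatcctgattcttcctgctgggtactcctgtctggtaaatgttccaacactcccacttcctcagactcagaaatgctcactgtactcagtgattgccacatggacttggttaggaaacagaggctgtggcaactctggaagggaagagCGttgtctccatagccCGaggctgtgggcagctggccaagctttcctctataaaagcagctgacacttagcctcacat
Hbb-bs: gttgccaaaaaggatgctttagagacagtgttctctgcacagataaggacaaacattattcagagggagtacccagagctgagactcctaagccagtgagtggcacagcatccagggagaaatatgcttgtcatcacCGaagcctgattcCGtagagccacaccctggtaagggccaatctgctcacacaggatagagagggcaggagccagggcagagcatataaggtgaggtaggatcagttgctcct

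Of the 21501 genes outside the lineage lists, 10302 were marked in 230-238 (47.9%, 95% Wilson interval 47.2 to 48.6) and 9751 in Scid.adh.2C2 (45.4%, 44.7 to 46). Both lines shared 9108 marked genes (42.4%), and 10556 genes (49.1%) were marked in neither line. A mark in 230-238 alone was found at 1194 genes (5.55%, 5.25 to 5.87) and in Scid.adh.2C2 alone at 643 genes (2.99%, 2.77 to 3.23). The 230-238 list is the longer of the 2, and no test of the difference between the lines was possible. Genes marked in 230-238 alone had lower and narrower peaks, with a median of 16.7-fold and 1856 bp against 22.2-fold and 2393 bp for genes marked in both lines.

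Of the 19604 peaks, 12679 lay at a promoter (64.7%, 64 to 65.3), and 12312 of these lay at a gene outside the lineage lists. These 12312 promoter peaks had a median enrichment of 19.4-fold (quartiles 14 and 23.9, range 2.14 to 42.1) and a median width of 1954 bp (quartiles 1251 and 2737, range 193 to 13580). The other 6925 peaks were lower and narrower, with medians of 9.75-fold and 1066 bp. The widest of them, at chr2:180432560-180445152, measured 12593 bp at 20.1-fold. One promoter peak was found at 6894 of the marked genes (66.9%), a pair at 2731 (26.5%) and 3 or more at 677 (6.57%). The highest peak of 3121 marked genes (30.3%) also lay at another protein-coding gene, so that marked neighbours are not independent of each other.

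Height and width were related only in part. Over the 12312 promoter peaks Pearson's r was 0.42 and Spearman's correlation 0.48, given as a description since all peaks come from the same combined libraries. The narrowest 10% had medians of 547 bp and 9.62-fold. The median height was 20.7-fold at a median width of 1822 bp in the fifth group of 10 ordered by width, and only 22.6-fold in the widest 10%, whose median width was 4445 bp. The median height thus rose with width mainly among narrow peaks and little above about the median width. Single wide peaks still varied in height, from 10-fold to 32.7-fold among the 15 widest. The highest 10% began at 27.5-fold and the widest 10% at 3675 bp, and 235 of the 1231 peaks in each group were in both (19.1%). Only 3 peaks were in both the 100 highest and the 100 widest.

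**Figure D1:**
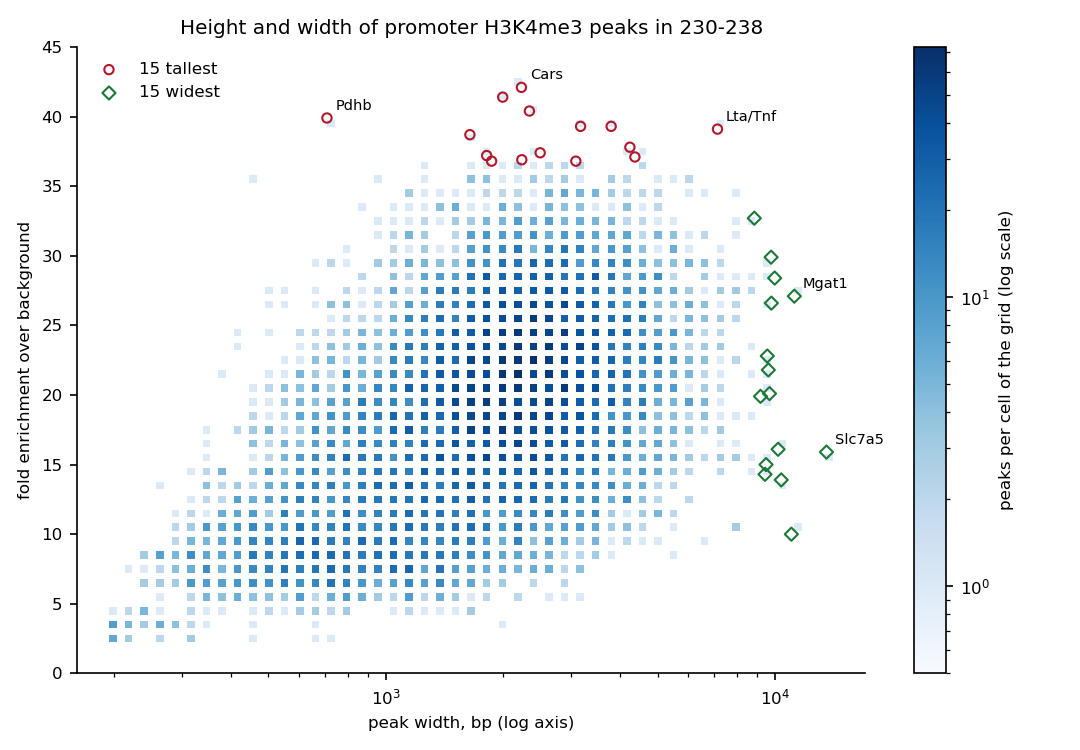
Height (fold enrichment over background, linear axis) against width (bp, log axis) of the 12312 promoter peaks of 230-238 at genes outside the lineage lists, with the colour of each grid cell giving the number of peaks on a log scale. Circles mark the 15 highest and diamonds the 15 widest peaks, and the highest peaks span widths from 707 bp at Pdhb to 7126 bp at Lta and Tnf while the widest span heights from 10-fold to 32.7-fold.

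The highest promoter peak was at Cars, the cysteinyl-tRNA synthetase that charges the tRNA of cysteine, at chr7:143597943-143600176, with 42.1-fold and 2234 bp. Of the genes at the 15 highest peaks, Cars and Hk1 were in the classes of general cell functions described further on, and most were in no class. Gas2l3, which links actin and microtubules during cell division, followed at chr10:89442533-89444532 with 41.4-fold and 2000 bp. Smyd5, a protein of the SET and MYND domain family of methyltransferases, had 40.4-fold and 2342 bp at chr6:85431650-85433991. These 3 peaks had widths near the median of all promoter peaks, and each was also present in Scid.adh.2C2, at 28.6-fold, 32.3-fold and 31-fold.

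Enzymes of carbon metabolism came next. Pdhb, the beta subunit of the pyruvate dehydrogenase that feeds pyruvate into the citric acid cycle, had a peak of 39.9-fold but only 707 bp at chr14:8173167-8173873. This peak held none of the annotated starts of the gene, and a second promoter peak of Pdhb measured 1545 bp at 24.1-fold. Hk1, the hexokinase that phosphorylates glucose at the entry of glycolysis, had 39.3-fold and 3170 bp. The Hk1 peak at chr10:62338585-62341754 lay entirely inside the gene, around 1 of its 12 annotated starts.

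Among regulators, Bcl9l, a coactivator of beta-catenin, had 39.3-fold and 3799 bp, and the overlapping Scid.adh.2C2 peak had 39.5-fold. Phf10, a subunit of a SWI/SNF chromatin remodelling complex, had 36.8-fold and 3083 bp in 230-238 against 14.4-fold in the overlapping Scid.adh.2C2 peak, while the highest Scid.adh.2C2 promoter peak of the gene had 32.6-fold. Nufip2, an RNA-binding protein, had 37.8-fold and 4244 bp and no overlapping peak in Scid.adh.2C2, the only such case among the 15 highest. Fold values come from separately called lists and are set side by side without a test.

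The cytokine genes Lta and Tnf, which encode lymphotoxin alpha and tumour necrosis factor, shared the most unusual of these peaks. It extended over 7126 bp at chr17:35198601-35205726 with 39.1-fold, and was ranked 7 in height and 75 in width among all 19604 peaks. Its summit lay 341 bp downstream of the first Tnf start, inside the Tnf gene. In Scid.adh.2C2 the overlapping peak measured 2122 bp at 10.4-fold, within reach of Tnf but not of Lta. The remaining peaks among the 15 highest, from 38.7-fold down to 36.8-fold, lay at Lancl1, Larp1b, Fam222b, LTO1, Dph1, which acts in the synthesis of the diphthamide residue of elongation factor 2, and at the adjacent pair Adhfe1 and Rrs1, of which Rrs1 is a ribosome assembly factor. The next peak below these, at Gtf2h4, a subunit of transcription factor TFIIH, had 36.7-fold.

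The IDR score of a peak runs from 540 at the threshold to 1000, and it was 1000 at almost every promoter peak, with 403 of 12312 below it (3.27%, 2.97 to 3.6). Among the 100 highest peaks, 19 scored below 1000 (19%, 12.5 to 27.8), against 3 of the 100 widest. Of the 15 highest, 6 scored below 1000, and they were Cars with 579, Pdhb with 554, Hk1 with 563, Bcl9l with 929, Nufip2 with 779 and Dph1 with 794. The replicates thus ranked some of the highest peaks less alike than the bulk of the list, and the cause was not tested. When only peaks with a score of 1000 were ranked, Gas2l3 was first at 41.4-fold.

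Slc7a5, the carrier that imports leucine and other large neutral amino acids, had the widest single promoter peak at chr8:121895964-121909543. When peaks within 1000 bp of each other were merged, it was only in place 12, and by bases covered per gene it was not among the first 15. It covered 13580 bp at only 15.9-fold, reached 1849 bp upstream of the first start it held and 11730 bp downstream, and 86.4% of it lay inside the gene. The overlapping Scid.adh.2C2 peak was 3286 bp wide at 22.3-fold.

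A pair of enzymes that process N-linked glycans in the Golgi apparatus was among them. Mgat1, the N-acetylglucosaminyltransferase that starts complex glycans, had 11227 bp at 27.1-fold at chr11:49241606-49252832, holding 12 of its 13 annotated starts. Man1a, a mannosidase that acts before Mgat1, had 10200 bp at 16.1-fold at chr10:54067301-54077500 and no peak in Scid.adh.2C2. In the latter line Mgat1 was marked by peaks of up to 3111 bp.

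Signalling genes included Pik3cd, the catalytic subunit of the phosphoinositide 3-kinase of leukocytes, with 9801 bp at 26.6-fold against 935 bp in Scid.adh.2C2. Sema7a, a membrane-anchored semaphorin found on lymphocytes, had 9995 bp at 28.4-fold against 1926 bp at 29-fold. Folds ran higher in the Scid.adh.2C2 list as a whole, and by rank within its own list the Sema7a peak was in the highest 4.77% in 230-238 and the highest 22.6% in Scid.adh.2C2. Stk17b, a kinase of the death-associated family that is abundant in lymphocytes, had 9627 bp against 3199 bp.

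Transcription factors and chromatin proteins formed a further set. Bcl11a, a zinc finger factor required for B cell development, shared 9498 bp at 15-fold with the divergent gene A830031A19Rik, and Mef2c, a MADS-box factor that acts in B cells, had 9439 bp at 14.3-fold. Neither was marked in Scid.adh.2C2. Rara, a retinoic acid receptor, had 9567 bp in 230-238 and 5814 bp in Scid.adh.2C2, and Pml, the protein that organises nuclear bodies, had 9693 bp in a peak shared with Stoml1 against 2225 bp.

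Setd1b, a catalytic subunit of a complex that itself places H3K4me3, differed from most of the 15 widest in 2 respects. Its peak of 9192 bp at chr5:123135770-123144961 was matched by one of 9229 bp in Scid.adh.2C2, and it extended 6423 bp upstream of the first start and only 2768 bp downstream. Further wide peaks were at Mbnl1, a splicing regulator, with 10391 bp, at Dnaaf2, Pole2, Gm49383 and Gm49384 together with 11033 bp at 10-fold, and at Nav2 with 9784 bp. The Nav2 peak held no annotated start of the gene and lay just upstream of it. Just below the 15 widest was Bcl2, the survival factor, with 8858 bp at 15-fold against 1675 bp in Scid.adh.2C2.

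Over the 15 widest peaks the median height was 20.1-fold (range 10 to 32.7), close to the 19.4-fold of all promoter peaks. In Scid.adh.2C2, 3 of the 15 had no overlapping peak, and the widest overlapping peaks of the other 12 had a median of 2746 bp (range 329 to 9229). For the 15 highest peaks the corresponding widths were 2342 bp in 230-238 and 1900 bp in Scid.adh.2C2. The 15 widest were chosen for their width in 230-238, so a narrower peak in the other list is partly given by that choice. Over the larger groups, 1064 of the 1231 peaks in the widest 10% overlapped a Scid.adh.2C2 peak (86.4%, 84.4 to 88.2), 1136 of the highest 10% did (92.3%, 90.7 to 93.6), and 9911 of all 12312 did (80.5%).

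**Figure D2:**
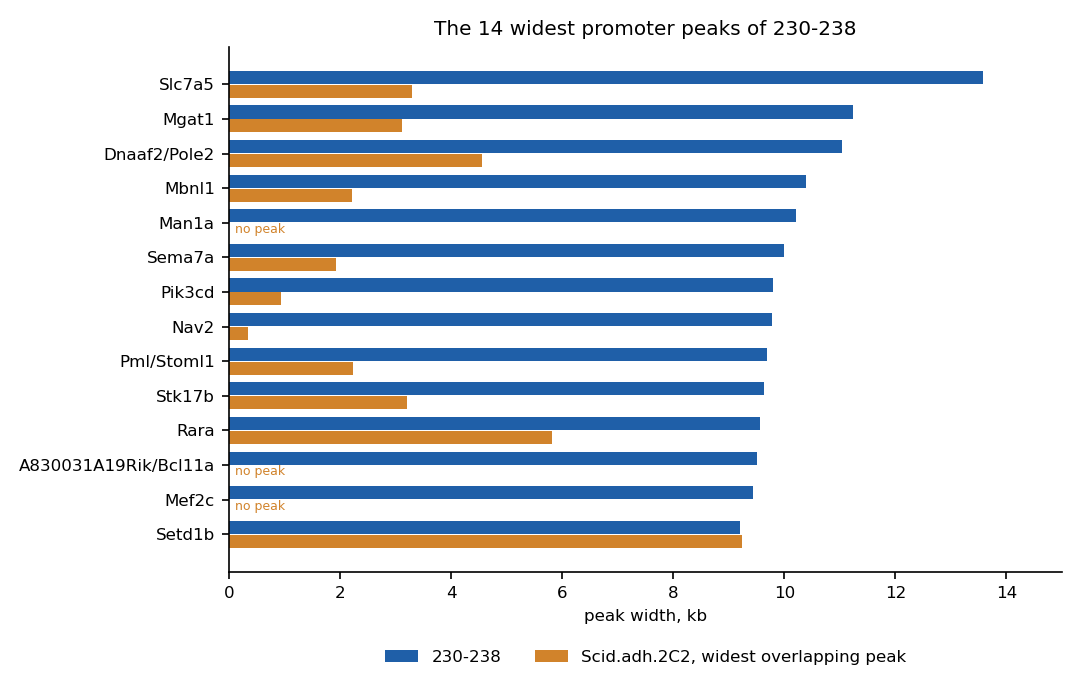
Widths in kb of the 14 widest promoter peaks of 230-238 (blue bars) and of the widest Scid.adh.2C2 peak that overlaps each (orange bars), named by the genes at the peak. Setd1b is the only one with an equally wide Scid.adh.2C2 peak, and Man1a, Bcl11a and Mef2c have none.

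The position of the peaks around the start was measured at genes with a single annotated TSS, where the start is not in doubt. Of 1012 such marked genes, 749 had a highest peak that held the TSS (74%, 71.2 to 76.6), and 436 of these peaks lay at no other protein-coding gene. The median summit was 344 bp downstream of the TSS (quartiles 163 and 609), and the summit was downstream in 366 of 436 cases (83.9%). These peaks extended a median of 662 bp upstream and 1486 bp downstream, and 373 of them (85.6%) reached farther into the gene than away from it.

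Wider peaks were longer mainly on the downstream side. From the narrowest to the widest 20%, the median width rose from 1292 bp to 4211 bp, the upstream part from 352 bp to 1098 bp and the downstream part from 864 bp to 3191 bp. The median summit moved from 244 bp to 632 bp downstream of the TSS. Slc7a5, Stk17b and Setd1b have several annotated starts and were not in this set. From the first start inside its peak, Slc7a5 reached 11730 bp downstream. By the same measure Stk17b reached 9580 bp downstream and 46 bp upstream, whereas Setd1b reached farther upstream than downstream.

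**Figure D3:**
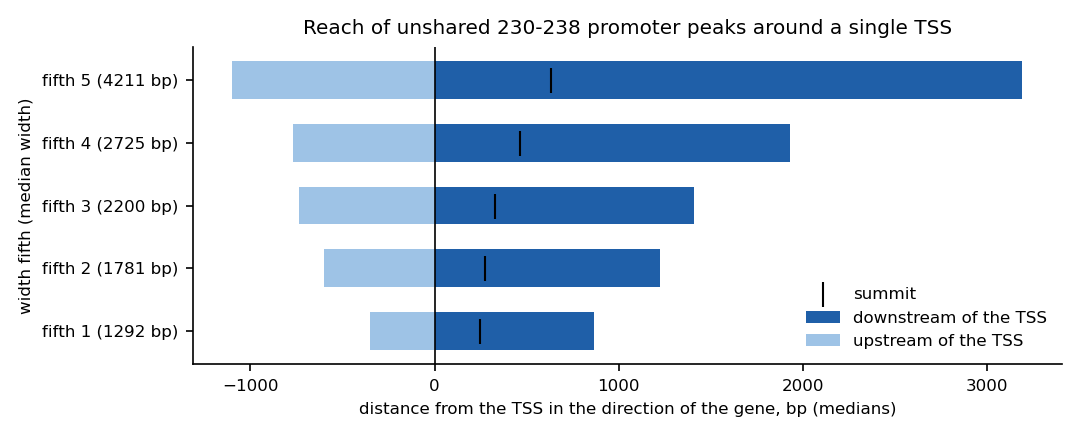
Median distance in bp upstream (light bars) and downstream (dark bars) of the TSS reached by 436 unshared peaks at genes with 1 TSS, in 5 groups by width, with the median summit as a black line. The downstream part grows from 864 bp to 3191 bp and the upstream part from 352 bp to 1098 bp.

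Protein-coding genes were then sorted into 77 classes by symbol, in 4 blocks of general cell functions, signalling, functions of other tissues, and cell type lists. In the general block 924 of 1029 genes were marked (89.8%, 87.8 to 91.5), in the signalling block 177 of 459 (38.6%, 34.2 to 43.1), and in the tissue block 694 of 5060 (13.7%, 12.8 to 14.7), beside 47.9% of all genes. More than 80% of the genes were marked in 21 classes, and fewer than 20% in 30. In Scid.adh.2C2 the blocks were marked at 88.6%, 34.6% and 12.4%, in the same order.

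All 39 aminoacyl-tRNA synthetases, which load amino acids onto tRNAs, all 28 RNA polymerase subunits and all 7 subunits of the CCT chaperonin, which folds actin and tubulin, were marked. DNA replication factors followed with 44 of 45, mitochondrial ribosomal proteins with 76 of 78, Mediator subunits with 32 of 33, cholesterol synthesis enzymes with 21 of 22, complex I subunits with 36 of 38 and spliceosomal proteins with 65 of 69. Proteasome subunits were marked at 46 of 49 genes and translation initiation factors at 44 of 47. Their median heights lay between 21-fold and 25.3-fold, close to the median of 21.8-fold over all marked genes. Single high values in these classes were 36.2-fold at U2af2, which recognises the polypyrimidine tract of introns, 36-fold at Ndufv1 of complex I and at Mrpl23 of the mitochondrial ribosome, and 35.5-fold at Polr2c, a subunit of RNA polymerase II, with an IDR score of 699.

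The lowest share within the general block was that of glycolytic enzymes, with 18 of 27 genes marked (66.7%, 47.8 to 81.4). The marked ones included Hk1, Eno1 with 28.9-fold and 4097 bp and Pfkp with 22.6-fold and 5669 bp, whereas those without a peak included the muscle and testis isoenzymes Pgam2, Pgk2 and Ldhc, the erythroid and hepatic pyruvate kinase Pklr, and Eno2, Hk3 and Ldhb. Rab GTPases, which direct vesicle traffic, were marked at 40 of 57 genes, and heat shock and J proteins at 55 of 70.

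Cytosolic ribosomal proteins had wide peaks. With 76 of 84 marked (90.5%, 82.3 to 95.1), their median height of 24.2-fold was near that of the other general classes, but their median widest peak was 3496 bp against 2346 bp over all marked genes. Of the marked ribosomal protein genes, 35 of 76 had a peak in the widest 10% and 23 in the highest 10%. Over all marked genes the shares were 14.9% and 14.7%. Glycolytic enzymes had a median width of 3356 bp, CCT subunits of 3258 bp and translation initiation factors of 2909 bp, while mitochondrial ribosomal proteins had 2260 bp.

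Signalling classes spread over a wide range. Map kinase cascade kinases were marked at 34 of 45 genes (75.6%), led by Mapk14, the p38 alpha kinase, with 33.8-fold, and cytosolic tyrosine kinases at 15 of 21 (71.4%). Dual specificity phosphatases were marked at 13 of 21 genes. The TNF receptor superfamily was marked at 12 of 26 genes (46.2%, 28.8 to 64.5) and semaphorins and plexins at 14 of 28 (50%, 32.6 to 67.4), both near the share of all genes. Of 39 chemokine ligands 2 were marked, Ccl25 at 20.9-fold and Cxcl10 at 10.9-fold, and of 32 interleukin genes 5 were, of which Il16 had 7649 bp at 27-fold with an IDR score of 714 and Il12a 27.3-fold.

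Developmental ligands were marked at 4 of 19 Wnt genes, led by Wnt5b at 29.5-fold, and at 4 of 22 fibroblast growth factor genes and 3 of 19 BMP and GDF genes. The highest of the latter 2 classes, Fgf20 and Gdf9, shared their peaks with Micu3 and Uqcrq. Receptor tyrosine kinases were marked at 11 of 50 genes, with Insr, the insulin receptor, at 24.3-fold and Ret at 23.1-fold. TNF superfamily ligands, which include Tnf and Lta, were marked at 6 of 18 genes, and their median widest peak was 4350 bp. Of 11 Toll-like receptors, which sense microbial products, 3 were marked, and Tlr4 had 7040 bp at 17.7-fold and no peak in Scid.adh.2C2.

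**Figure D4:**
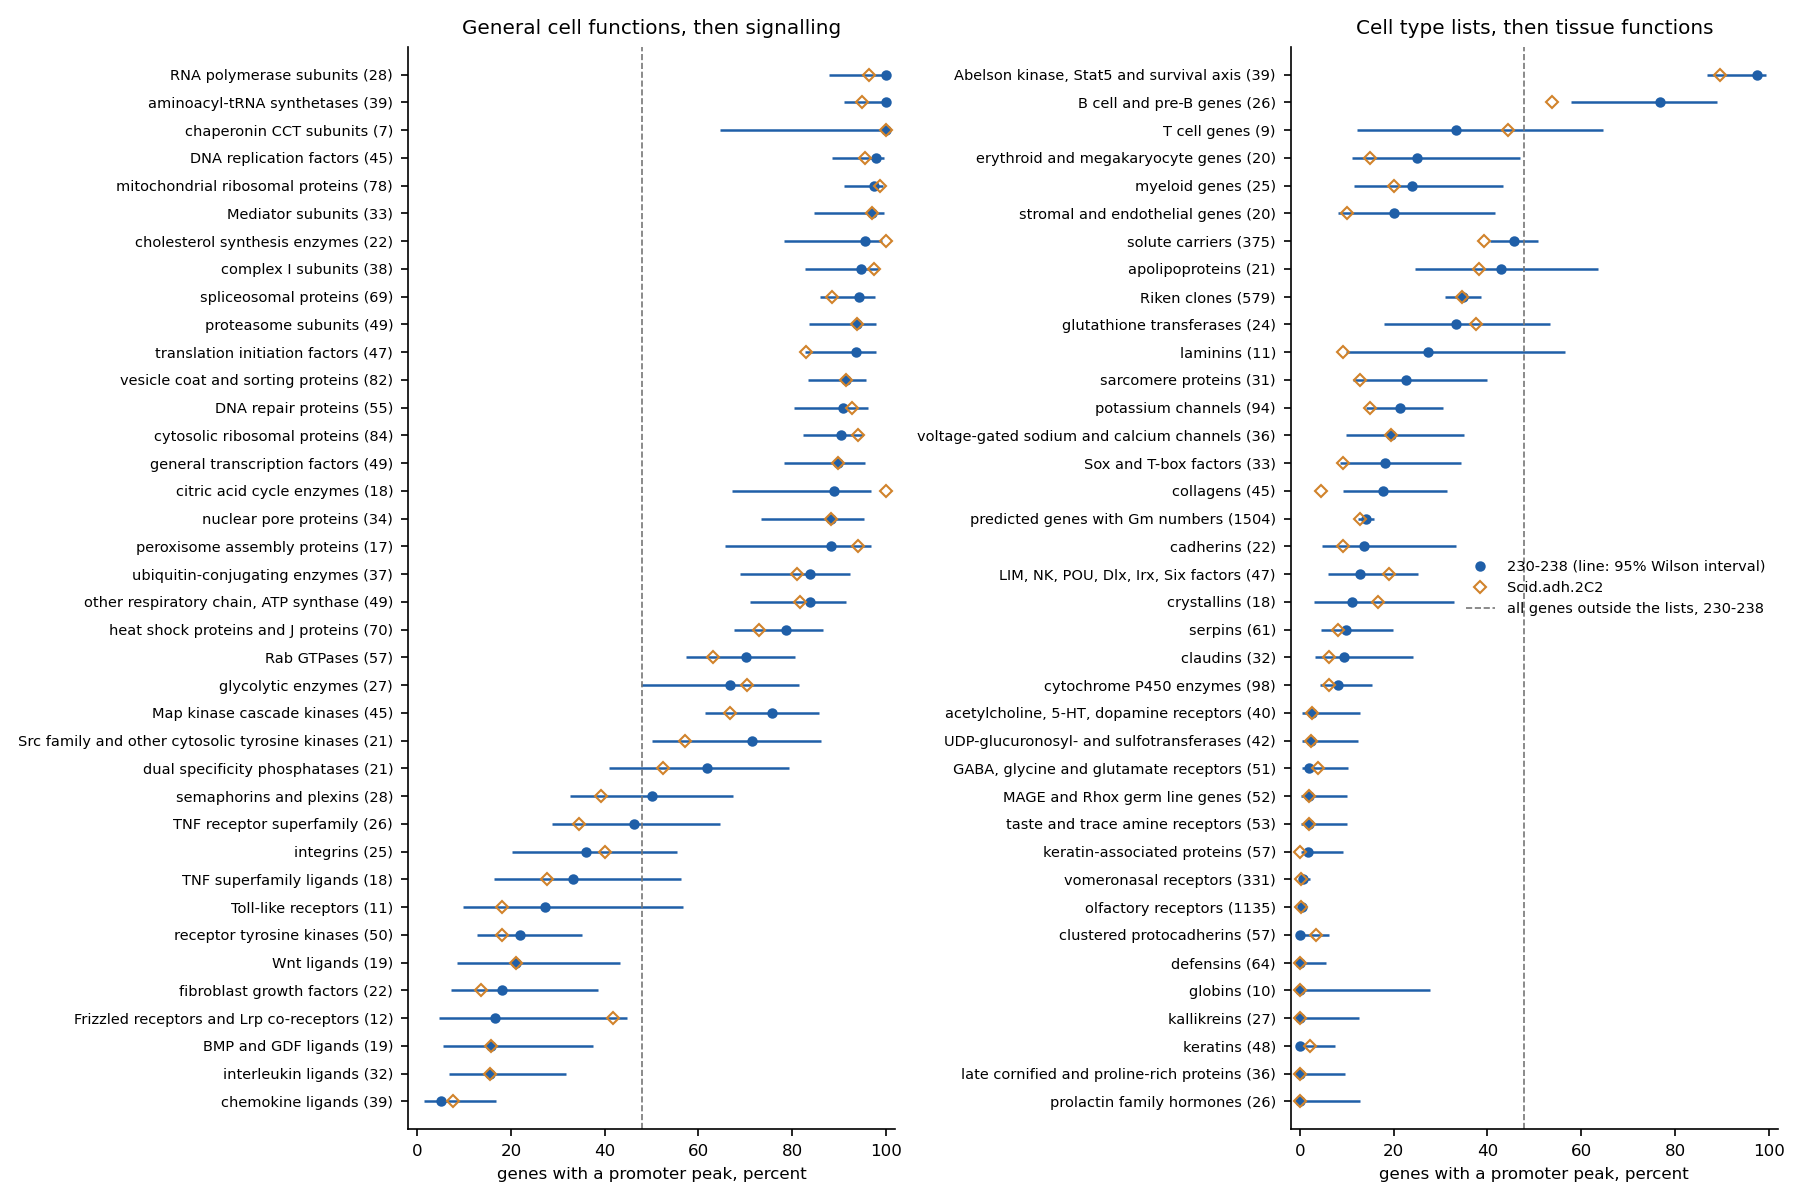
Percent of genes with a promoter peak in 76 of the 77 classes, with the number of genes outside the lineage lists in brackets, for 230-238 (circles with 95% Wilson intervals) and Scid.adh.2C2 (diamonds). The dashed line is the 47.9% of all genes, and classes of general cell functions lie mostly above 80% while most tissue classes lie below 20%.

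In 7 tissue classes no gene was marked in 230-238. They were the 48 keratins, the 36 late cornified envelope and small proline-rich proteins, the 64 defensins, the 57 clustered protocadherins, the 27 kallikreins, the 26 prolactin family hormones and the 10 globins. The Wilson intervals ended at 27.8% for the 10 globins and at 5.66% for the 64 defensins. These ends reflect only the number of genes in each class. Olfactory receptors were marked at 6 of 1135 genes (0.529%, 0.242 to 1.15) and vomeronasal receptors at 2 of 331. These gene families and the globins contain near-identical copies, and how reads that map to several copies were treated is not given in the sources used here.

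Some marked members of the tissue classes shared their peak with a gene of another kind, as 30.3% of all marked genes shared theirs. The only marked taste receptor, Tas1r1, had 32.1-fold in the peak of its neighbour Nol9, a nucleolar kinase, and the only marked gene among 51 GABA, glycine and glutamate receptors was Grin2d with 29.8-fold in the peak of Kdelr1. Mageb3 shared a peak with Ctdspl2, Vmn1r4 with Nt5c3, Apof with Stat2, Actn3 with Zdhhc24 and Tnnc1 with Nisch. When each peak was given only to the gene with the nearest TSS, an alternative added after the data had been seen, 499 of the 694 marked tissue genes kept a peak, against 834 of 924 in the general block, and the share over all genes was 42.8% in place of 47.9%. The tissue block includes 212 marked predicted genes with Gm numbers, of which 94 kept a peak and which make up much of this loss.

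Other marked tissue genes had peaks of their own. Dlx1, a homeobox factor of the forebrain, had 33.4-fold and 3177 bp, and Irx5 had 25.4-fold and 4044 bp, both also marked in Scid.adh.2C2. Chrnb1, a muscle acetylcholine receptor subunit, had 29.5-fold. Kcna3, the voltage-gated potassium channel of lymphocytes, had a peak of 8620 bp at 21.6-fold against 2652 bp in Scid.adh.2C2. Col27a1 had 23-fold and Lamb3 26.2-fold without a peak in Scid.adh.2C2, where 2 of 45 collagen genes were marked against 8 in 230-238. The classes were set by symbol, and a few hold strays such as the cytidine deaminase Apobec1 among apolipoproteins and the ceramide transfer protein Col4a3bp among collagens.

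Genes of the B cell list that lie outside the lineage lists were marked at 20 of 26 (76.9%, 57.9 to 89), and at 14 of 26 in Scid.adh.2C2. Ikzf1, the Ikaros factor of lymphoid development, had the highest peak with 33.1-fold and 4934 bp, and was also marked in Scid.adh.2C2 at 34-fold and 8409 bp. Tcf3, the E2A factor, had 27.4-fold and 4093 bp, Fli1 27.2-fold and Runx1 27.2-fold with 7209 bp. Il7r, the receptor that supports early B and T cell growth, had a peak of 13.9-fold, and Dntt, the terminal transferase of V(D)J recombination, one of 6.02-fold and 1121 bp. Genes of this list marked in 230-238 alone included Bcl11a, Mef2c, Tcf4, Plcg2, Bank1, Cd93, Tnfrsf13b and Tnfrsf13c.

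The 6 unmarked genes of the B cell list were Cd2, Cr2, Erg, Ets1, Fcer2a and Rag2. Cr2 and Fcer2a encode receptors of mature B cells. Rag2, a recombinase subunit, had no peak within 53116 bp in 230-238 and one of 8.2-fold and 645 bp in Scid.adh.2C2. Ets1, a lymphoid transcription factor, had its nearest peak at 12571 bp and a Scid.adh.2C2 peak of 23.4-fold.

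The list of Abelson kinase, Stat5 and survival genes was marked at 38 of 39 genes (97.4%, 86.8 to 99.5), and at 35 of 39 in Scid.adh.2C2. Abl1, the cellular form of the transforming kinase, had 21.4-fold, its partner in human leukaemia Bcr 21.8-fold, Jak3 28.6-fold, and Stat5a and Stat5b 27.3-fold and 20.3-fold. The cell cycle genes Ccnd1, Ccnd3 and Cdk6 had 26.5-fold, 28.9-fold and 29.3-fold, with widths of 6233 bp, 4573 bp and 6380 bp. Myc, Ccnd2 and Cish were marked in 230-238 alone, and the widest peak of Cish, a Stat5 target that limits cytokine signalling, measured 5944 bp. The one unmarked gene was Cdkn2a, which encodes the p16 and p19 tumour suppressors, with its nearest peak 118673 bp away.

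Wide peaks were frequent in these lists. Of the 76 marked genes of the 6 cell type lists, 31 had a peak in the widest 10% (40.8%, 30.4 to 52), against 143 of 924 in the general block (15.5%, 13.3 to 18), 37 of 177 in the signalling block (20.9%) and 92 of 694 in the tissue block (13.3%), beside 14.9% of all marked genes. For the highest 10% the shares were 14.5% in the cell type lists, 17.2% in the general block, 10.7% in the signalling block and 10.2% in the tissue block. Of the 31 genes, 16 were of the Abelson and Stat5 list and 9 of the B cell list. The cell type lists and the general block thus differed in the share of wide peaks and had similar shares of high ones. Classes within the general block varied, from 0 of 21 marked cholesterol synthesis enzymes to 35 of 76 marked cytosolic ribosomal proteins with a peak in the widest 10%. In the lists of other cell types, 3 of 5 marked erythroid and megakaryocyte genes had one. There, 1 of 3 T cell, 1 of 6 myeloid and 1 of 4 stromal and endothelial genes did. The lists were chosen with earlier results of these data known, and the difference was not tested.

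Lists of markers of other cell types that the culture could hold are given beside the 47.9% of all genes and without a test. Of 9 T cell genes outside the lineage lists 3 were marked (33.3%, 12.1 to 64.6, and 4 in Scid.adh.2C2), Hes1 at 31-fold, Zap70 at 18.8-fold and Cd5 at 9.5-fold, and those without a peak included Cd4, Cd8a, Cd8b1, Dtx1 and Lcp2. Dtx1, a regulator of Notch signalling, had 39.5-fold and 8548 bp in Scid.adh.2C2. Of 25 myeloid genes 6 were marked (24%, 11.5 to 43.4, and 5 in Scid.adh.2C2). They were Csf2ra, Csf2rb, Cebpe, Fcer1g, Prtn3 and Cd68, the last in a peak shared with Mpdu1. Myeloid genes without a peak included Mpo, Elane, Lyz2, S100a8, S100a9, Csf1r and Cebpa. Of 20 erythroid and megakaryocyte genes 5 were marked (25%, 11.2 to 46.9, and 3 in Scid.adh.2C2), including Car2 with 6416 bp at 19.7-fold, and the globins, Gata1, Epor, Alas2 and Pf4 had no peak. Tal1 lay just outside the rule, with its nearest peak 2693 bp from a start. Of 20 stromal and endothelial genes 4 were marked (20%, 8.07 to 41.6, and 2 in Scid.adh.2C2), Eng, Pecam1, Vim and Col1a1, and Cdh5, Kdr, Pdgfra and Cxcl12 were not.

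The general block left 105 unmarked genes. Many were paralogs for the germ line or for single tissues, such as Rpl10l, Rpl3l, Taf7l, Gtf2a1l, Psma8, Nup210l and Rad21l. Others were genes of use in every dividing cell. Of the 105, 22 were marked in Scid.adh.2C2 (21%, 14.3 to 29.7), at a median of 26.1-fold (range 5.54 to 45.4), beside 643 of 11199 of all genes unmarked in 230-238 (5.74%).

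Of these 22, those at a pair of shared peaks were within the highest 2% of the Scid.adh.2C2 list by fold. Rps18, a ribosomal protein of the small subunit, and its neighbour Vps52 shared a Scid.adh.2C2 peak of 45.4-fold and 2957 bp, and their nearest 230-238 peaks were 10504 bp and 13775 bp away. Vps29, a retromer subunit, and Rad9b shared one of 41.8-fold with an IDR score of 566. Idh2, the mitochondrial isocitrate dehydrogenase, had 36.5-fold, Ndufb8 of complex I 33.7-fold, Cdc45, a component of the replicative helicase, 31.4-fold, Mrpl21 31.3-fold, and Rpl35 31.2-fold with 3007 bp. In 230-238 the nearest peak of Idh2 lay 3650 bp from a start and that of Rpl35 4550 bp, whereas the one nearest to Cdc45 was 63155 bp away.

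The remaining 83 were unmarked in both lines. Among them were Srsf1, Uqcrc1, a core subunit of complex III, Ndufs3 of complex I, Mrps23, Snrnp40 of the U5 small nuclear ribonucleoprotein, and Rad9a of the DNA damage checkpoint clamp. Their nearest 230-238 peaks lay between 42661 bp, for Uqcrc1, and 251363 bp, for Snrnp40. The reason that no peak was listed at these promoters was not tested, and the read coverage there was not analysed here.

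CpG content was taken over the 250 bases upstream and 50 bases downstream of each of 91280 TSSs, as the number of CG dinucleotides over that expected from the C and G content. The median ratio was 0.808 (quartiles 0.617 and 0.944) at TSSs within reach of a peak of the highest 10%, 0.797 (0.519 and 0.952) for the widest 10% and 0.77 (0.542 and 0.918) at other marked TSSs. It was 0.295 (0.143 and 0.563) at TSSs of unmarked genes, and 0.241 (0.14 and 0.362) at TSSs without a peak in genes marked at another TSS. The marked groups differed little among themselves compared with the gap to the unmarked groups. The starts of marked genes that lay out of reach of a peak had a median as low as that of unmarked genes. A ratio of 0.6 or more was found at 76.1% of TSSs in the highest 10%, 69.4% in the widest 10% and 70.8% of other marked TSSs. In unmarked genes it was found at 22.6%, against 41% of all TSSs.

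**Figure D5:**
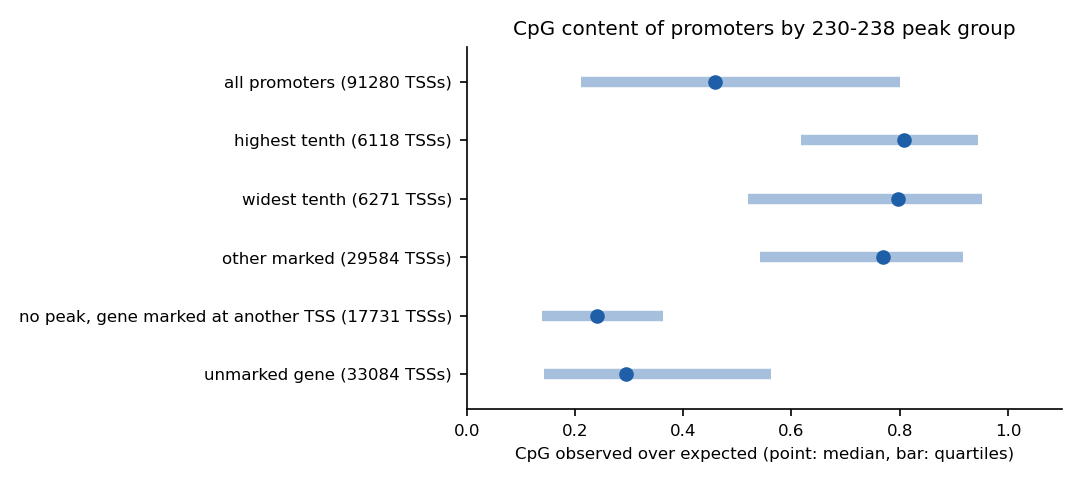
CpG observed over expected (median as a point, quartiles as a bar) over the 300 bases around TSSs, for all promoters and for 5 groups by their 230-238 peaks, with the number of TSSs in brackets. Marked groups have medians from 0.77 to 0.808, and groups without a peak 0.241 and 0.295.

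Short motifs were counted on both strands in the same windows, where a match is only a run of letters. GGGCGG, a GC box, was in 60% of TSS windows of the highest 10%, 58.3% of the widest 10% and 26.9% of unmarked genes, against 38.5% of all windows. CCGGAA, the core of Ets factor sites, was in 31.9%, 25.9% and 7.42%, against 17%. TATAAA, the TATA box, ran in the other direction, at 6.21%, 6.68% and 15.2%, against 11.5%. CCAAT was in 36.9%, 32.2% and 35.3%, with no order by peak group. TCCCNNGGGA, the palindromic motif of Ebf1, was rare throughout, at 0.539%, 1.12% and 1.04% against 0.917%. Of the printed promoters, Smyd5, Tnf, Mgat1, Sema7a, Bcl11a, Srsf1 and Rpl35 hold GGGCGG on one of the strands, while TATAAA is found in Tnf and S100a8.

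Among the genes of the general block, the CpG ratio at the most upstream TSS was 0.6 or more at 733 of 924 marked genes (79.3%) and at 42 of 105 unmarked genes (40%). The 22 genes marked in Scid.adh.2C2 alone were closer to the marked genes, with 14 at 0.6 or more (63.6%) and a median of 0.72, than the 83 genes unmarked in both, with 28 (33.7%) and a median of 0.432. Single genes unmarked in both lines nevertheless had CpG-rich starts, among them Snrnp40 with a ratio of 1, Ndufs3 with 0.885, Mrps23 with 0.878 and Srsf1 with 0.877. Rpl3l, a muscle paralog, had 0.0893.

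Marking also differed by chromosome. Of 934 X-linked genes 285 were marked (30.5%, 27.6 to 33.5), against 10013 of 20371 autosomal genes (49.2%, 48.5 to 49.8). Without olfactory, vomeronasal and Gm-numbered genes the shares were 34.8% and 55.4%. Other gene families were left in, and the reason for the lower share on the X chromosome was not tested. In Scid.adh.2C2 29.6% of X-linked genes were marked. Chromosomes 14, 7 and 6 had the lowest autosomal shares with 37.9%, 40.7% and 41.9%, and chromosomes 12, 8 and 11 the highest with 56.7%, 56.6% and 56.5%. On chromosome 7, 25.4% of the genes were olfactory, vomeronasal or Gm-numbered, and without them its share was 53.5%. The median height per chromosome lay between 18.4-fold and 20.7-fold for the autosomes and was 18.7-fold for the X chromosome. On the Y chromosome 4 of 183 genes were marked, and none of the 13 mitochondrial genes was.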

How the data were processed

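H3K4me3 ChIP-seq was carried out by the authors on 2 libraries and 1 input library of each of the lines 230-238 and Scid.adh.2C2. The authors trimmed reads with Trim Galore 0.6.7, aligned them to mm10 (GRCm38) with Bowtie2 2.4.4 and called narrow peaks with MACS2 2.2.7.1, and the versions are those of the submitters' processing notes. They deposited 1 optimal IDR peak list per line, made from both replicates, with the input entering only through their calling. Each deposited row carries the IDR-based score, the fold (a ratio of peak to background), and −log10 p and −log10 q values from the authors' caller. The treatment of duplicate and multi-mapping reads is not given in the sources used here.

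Peaks were related to TSSs of protein-coding genes of GENCODE vM21 within 2500 bp. Heights are the fold column and widths end minus start, computed in Python 3.11.15 (pandas 2.3.3, numpy 2.4.6; intervals with scipy 1.17.1, plots with matplotlib 3.10.9), and the functions were tested on simulated data. The printed promoter sequences were those of RefSeq, whose promoters covered 16195 of the genes outside the lineage lists. CpG content and motifs were instead counted in the GRCm38 genome sequence around each GENCODE TSS of the genes outside the lineage lists. Genes were named as the 15 highest and 15 widest promoter peaks and as members of symbol-based classes by marked state and value. Members, classes and lists were chosen with earlier results of these data known. Alternatives changed the promoter distance, the overlap, the peak thresholds and the choice of TSS. A few genes and 1 class are not reported here. No test was made, since each line has 1 combined list.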

Additional observations from a re-analysis of the deposited data

How the results depend on the processing

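The share of genes marked in 230-238, 47.9% at 2500 bp, was 46.6% with 1000 bp, 49.8% with 5000 bp, 46.4% with peaks of at least 10-fold, 47.2% with peaks of IDR score 1000, 47.2% with the summit inside the promoter, 45.1% with the most upstream TSS only and 42.8% with each peak given to the gene of the nearest TSS, the last chosen after seeing the data. Of the 15 highest peaks, 6 were among the 15 highest by −log10 q and 9 when only peaks of IDR score 1000 were ranked. Of the 15 widest, 5 were among the 15 widest after peaks within 1000 bp were merged, where Gm49384 and Pole2 led with 23276 bp, and 3 by covered bases per gene, where Wipf1 led with 13878 bp. Spearman's correlation of height and width was 0.35 with merged peaks and 0.56 with −log10 q as height. Giving peaks to the nearest TSS put 64 of 77 classes inside their interval and 13 below it. No paired analysis was possible because each list combines both replicates of its line, and for the same reason no replicate could be left out. Read depth is unknown, so how many unmarked promoters lie under the calling threshold cannot be given.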
